A study of Mus musculus with 48 samples.

Results

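The 5 genes described here are known for the primitive endoderm and were followed through ChIP-seq of mouse embryonic stem cells: the transcription factors Gata4, Gata6, Sox7 and Sox17 and the receptor Pdgfra. They were chosen by name, as 5 of 21900 protein-coding genes with a position on GRCm38.p6, the RefSeq assembly that corresponds to mm10. A region was assigned to a gene when it overlapped the 5 kb on either side of the gene's lower or upper end. Positions below are distances in kb from the end with the lower coordinate, since the annotation used gives no strand. The 48 libraries form 24 groups of 2 over 9 targets and 4 genotypes: wildtype cells (iCre), Zbtb11KO cells that carry inducible Zbtb11-HA, Zfp131KO cells that carry inducible Zfp131-HA, and a double knockout that carries inducible Zbtb11-HA and Zfp131-V5. All libraries except those against HA came from cells kept 3 days without doxycycline, so without induction of the tagged protein, in medium with LIF and without 2i (the inhibitors CHIR and PD0325901). The HA libraries came from the Zbtb11KO and Zfp131KO lines after 3 days with doxycycline in medium with 2i and LIF. Each genotype is 1 cell line, so the effect of a knockout and of its line cannot be told apart, and the labels do not say whether the 2 libraries of a group came from separate cultures. The double knockout was available for NELF and H3K4me3, and since each deposited value stands for a pooled group or for a contrast between groups, values of single libraries cannot be given.

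Primitive endoderm is the extraembryonic layer that separates from the pluripotent epiblast in the blastocyst. FGF signalling through ERK favours this fate, GATA6 is needed early for it, and GATA4, SOX17 and SOX7 follow as the cells mature; PDGFRA, a receptor tyrosine kinase for PDGF, is an early surface marker of the lineage. In embryonic stem cells, promoters of silent developmental regulators often carry H3K4me3, a mark of promoters, together with H3K27me3, the mark laid down by Polycomb repressive complex 2, a state called bivalent. H3K27ac marks active promoters and enhancers, polymerase II phosphorylated on serine 5 (POL2S5P) marks initiated polymerase, and NELF holds polymerase paused just after initiation.

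The labels call the cells embryonic stem cells, and in wildtype all 8 stem cell markers checked had a POL2S5P domain within 5 kb, with 4903 to 35534 listed reads and a median of 9061.5. The endoderm genes had 70 POL2S5P reads at Gata6, 107 at Sox7, 229 at Sox17 and 113 at Pdgfra. The 199 reads within 5 kb of Gata4 all lay in 1 domain beside the end of the neighbouring gene Neil2, so Gata4 had no POL2S5P domain at its ends apart from that one, and 63.8% of all genes had a domain. All 5 lay below the lowest stem cell marker in reads. In the wildtype lists, reads in H3K4me3 domains summed to 35.1 M over the genome, against 28.3 M for Zbtb11KO, 32.3 M for Zfp131KO and 59.5 M for the double knockout. Raw sums at a gene are therefore read beside the median of all genes.

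Wildtype cells held both histone marks at the ends of Gata6, Sox7, Sox17 and Pdgfra. All 5 genes had a H3K4me3 domain within 5 kb in every genotype, beside 71.4% of all genes in wildtype, 70.2% in Zbtb11KO, 70.7% in Zfp131KO and, with both genes knocked out, 71.9%. All 5 also had a H3K27me3 domain in the 3 genotypes profiled, beside 32.6% of all genes in wildtype, 36.4% in Zbtb11KO and 37.5% in Zfp131KO. H3K4me3 domains within 5 kb covered 2719 bp at Gata6 (chr18:11052510-11085636), 1787 bp at Sox7 (chr14:63943706-63950732), 2740 bp at Sox17 (chr1:4490928-4497426) and 2658 bp at Pdgfra (chr5:75151322-75198206). H3K27me3 domains also covered 91.5% of this H3K4me3 width at Gata6, 90.4% at Sox7, 100% at Sox17 and 77% at Pdgfra. Over all 15643 genes with H3K4me3 within 5 kb, 38.2% had any overlap with H3K27me3. Gata4 (chr14:63198914-63271712) differed at its ends: its 1217 bp of wildtype H3K4me3 lay at -5.96 to -4.74 kb, below the lower end and beside the end of Neil2, which stops 4760 bp from Gata4, and 0% of it overlapped H3K27me3. Within the gene, Gata4 had wildtype H3K4me3 domains between 41.5 and 57.5 kb from the lower end, and over the gene with its flanks 60.1% of the H3K4me3 width overlapped H3K27me3.

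The H3K27ac signal at these genes was small in wildtype and mostly unlisted in the knockouts. Wildtype lists held 149 H3K27ac reads in 2 domains at Sox7, 41 in 2 at Gata6, 20 in 2 at Pdgfra, 10 in 1 at Sox17 and no domain at the ends of Gata4. The Zbtb11KO list held none within 5 kb of any of the 5 genes, and the Zfp131KO list held 1, of 10 reads, at Sox7. Over all genes, 53.9% had a H3K27ac domain within 5 kb in wildtype, 48.4% in Zbtb11KO and 49.4% in Zfp131KO. The stem cell markers had a median of 965 H3K27ac reads in wildtype.

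H3K4me3 was higher in the knockouts at Gata6 and Sox17 by the authors' own test. Each gene was represented by its region of highest mean signal within 5 kb, and a region was called when its adjusted p-value from DESeq2 was under 0.05. A positive log2 fold change means higher in the knockout. Each percentile is the share of genes with a region whose fold change lay below that of the gene named. Both knockouts were compared with the same wildtype libraries, so their values are set side by side and are not independent.

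Gata6, the zinc finger factor at the top of the endoderm programme, had a log2 fold change of 2.27 (SE 0.14, adjusted p 5.45e-55) in Zbtb11KO and 1.56 (SE 0.34, adjusted p 6.35e-05) in Zfp131KO in the authors' deposited tables, over a region from about -0.53 to 3.06 kb. Its fold change lay at the 88.0th percentile of genes in Zbtb11KO and at the 99.1st percentile in Zfp131KO. Sox17, an HMG-box factor of extraembryonic and definitive endoderm, had 1.19 (SE 0.16, adjusted p 2.92e-13) in Zbtb11KO and 1.44 (SE 0.16, adjusted p 7.66e-16) in Zfp131KO in the authors' deposited tables. These lay at the 70.3rd percentile of genes in Zbtb11KO and the 98.8th in Zfp131KO. Pdgfra had 1.09 (SE 0.15, adjusted p 1.45e-11) in Zbtb11KO in the authors' deposited table, at the 68.6th percentile.

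The remaining gene and knockout pairs were not called at this region. Pdgfra in Zfp131KO had 0.49 (SE 0.28, adjusted p 0.191) per the authors' deposited table at the region 4.19 to 5.85 kb from the lower end, while its other long region, of 2888 bp at 1.15 to 4.04 kb, had 1.61 (SE 0.51, adjusted p 0.0103). Sox7 had 0.08 (SE 0.26, adjusted p 0.844) in Zbtb11KO and 0.73 (SE 0.51, adjusted p 0.303) in Zfp131KO in the authors' deposited tables, the second with a 95% interval from -0.28 to 1.73. For Gata4 the selected region was the one beside Neil2, with -0.47 (adjusted p 0.196) in Zbtb11KO and 0.08 (adjusted p 0.851) in Zfp131KO in the authors' deposited tables, so it describes that shared stretch rather than Gata4 alone.

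Called counts of the 5 genes were close to those of all genes. In Zbtb11KO 3 of the 5 were called higher and 0 lower, while 43.1% of 15834 genes were higher and 23.7% lower. In Zfp131KO 2 of the 5 were higher and 0 lower, while 34% of 15851 genes were higher and 4.34% lower. The count is thus near the background in both knockouts, and in Zfp131KO the size of the fold change at Gata6 and Sox17 was high among genes. The median of all genes was 0.20 in Zbtb11KO and 0.24 in Zfp131KO.

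**Figure D1:**
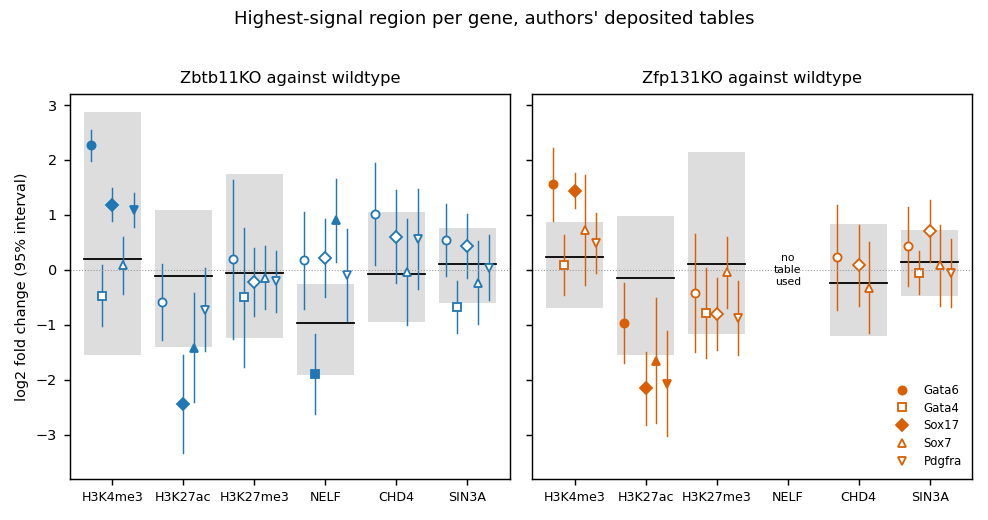
Log2 fold change of each gene's highest-signal region, knockout over wildtype, in the authors' deposited tables for H3K4me3, H3K27ac, H3K27me3, NELF, CHD4 and SIN3A. NELF in Zfp131KO has no values. Bars are 95% intervals and filled markers are regions with an adjusted p under 0.05. Grey bands run from the 5th to the 95th percentile of all genes and black lines are their medians. For H3K4me3 in Zfp131KO, Gata6 at 1.56 and Sox17 at 1.44 lie above the grey band, and for H3K27ac all filled markers lie below 0.

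Counting every region within 5 kb rather than 1 per gene, 17 of 35 regions were called higher and 1 lower in Zfp131KO, beside 15.1% and 11.4% of all 60238 regions in that table. In Zbtb11KO 4 of 27 were higher and 0 lower, beside 17.4% and 10.4%. Of the 62288 regions tabulated for Zbtb11KO, 12071 had no adjusted p and count here as not called, against 0 in Zfp131KO. The counts of the knockouts are therefore not on one footing. Of the 17 higher regions, 14 had a domain in the Zfp131KO list alone and 3 in both lists. The list of origin moves with the call: 27.8% of all regions listed in Zfp131KO alone were called higher and 0.287% lower. Regions of 1 gene adjoin each other and are not independent.

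Most of these regions lay at Gata4 and Gata6, in stretches without a wildtype domain. At the upper end of Gata4, 4 regions 70.0 to 72.9 kb from the lower end had log2 fold changes of 1.79 to 3.07 in Zfp131KO in the authors' deposited table, with adjusted p from 0.0111 down to 1.42e-05. At Gata6, 8 short regions of 44 to 423 bp on both sides of the main domain had 1.23 to 3.28 in Zfp131KO in the authors' deposited table. No region at the upper end of Gata4 was called in Zbtb11KO, where the 211 bp region at 69.6 kb had 0.14 (adjusted p 0.945) per the authors' deposited table. Over all 4 Gata4 regions in Zbtb11KO, fold changes ran from -0.47 beside Neil2 to 2.36 at the upper end, with none called. The difference between the knockouts was not tested.

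Domain widths and reads extend this to the double knockout, for which no test was available. The reads are read counts that the authors listed per domain from pooled replicates, summed here over domains within 5 kb. Gata6 had 1221 H3K4me3 reads over 2719 bp in wildtype, 2891 over 4692 bp in Zbtb11KO, 3441 over 5329 bp in Zfp131KO and 11396 over 8823 bp in the double knockout. The double knockout was thus 9.33-fold above wildtype, and 5.68-fold once divided by the median ratio of all genes, 1.64. A change in the share of cells with the mark and a change in the mark per cell cannot be told apart in such pooled cells.

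At Gata6 the separate domains of wildtype were joined into 1 in the double knockout. The stretch from -4.26 to 4.14 kb held 4 domains in wildtype, 7 in Zbtb11KO, 10 in Zfp131KO and a single domain of 8399 bp with 11275 reads in the double knockout. Further domains in the double knockout reached 8.54 kb into the gene. This stretch includes the end of the long noncoding RNA Gata6os, which overlaps the lower end of Gata6, so reads cannot be assigned to 1 of these genes. Domains are called from read counts, and reads in H3K4me3 domains summed to 59.5 M in the double knockout against 35.1 M in wildtype. Widths and joins were not scaled for this, and its part in the joining was not tested.

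Gata4 had wider H3K4me3 at its ends in all 3 knockout lines, though its wildtype width was wholly the stretch beside Neil2, so no ratio of its own ends can be given. Its summed H3K4me3 width was 1217 bp in wildtype, 1583 bp in Zbtb11KO, 3408 bp in Zfp131KO and 4456 bp in the double knockout, and its reads were 807, 713, 1236 and 1789 in the same order. The upper end accounts for this: the stretch 69.4 to 72.9 kb from the lower end had 0 reads in wildtype, 62 in Zbtb11KO, 559 over 2322 bp in Zfp131KO and 1291 over 3359 bp in the double knockout. The stretch beside Neil2 went the other way, with 807, 651, 677 and 453 reads. Inside the gene, the stretch 44.8 to 47.2 kb from the lower end had 951, 1492, 1602 and 2324 reads, and the stretch 56.3 to 57.6 kb had 491, 487, 397 and 525. The first of these inner stretches, read at 45.2 to 47.1 kb, had a log2 fold change of 1.60 (SE 0.18, adjusted p 1.87e-17) for Zbtb11KO and 0.99 (SE 0.42, adjusted p 0.0645) for Zfp131KO in the authors' deposited tables.

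Of the SOX factors, Sox17 differed from wildtype more in reads than in width. Its H3K4me3 sums were 1725 reads over 2740 bp in wildtype, 2020 over 2440 bp in Zbtb11KO, 3707 over 2928 bp in Zfp131KO and 8383 over 4502 bp in the double knockout. In each genotype 1 domain near the lower end held most of it, with 1603, 1986, 3582 and 8053 reads. Sox7, a close relative of SOX17 in the SOXF group, had 847 reads over 1787 bp, 649 over 1511 bp, 1182 over 2066 bp and 1746 over 2403 bp. Its double knockout reads were 2.06-fold above wildtype, at the 82.7th percentile of genes, or 1.25-fold once divided by the median ratio of all genes.

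Pdgfra had 1560 H3K4me3 reads over 2658 bp in wildtype, 2228 over 5251 bp in Zbtb11KO, 2835 over 5016 bp in Zfp131KO and 10881 over 8218 bp in the double knockout. The stretch from the lower end to 5.98 kb held 6 domains in wildtype, 3 in Zbtb11KO and 4 in Zfp131KO, and in the double knockout it was 1 domain of 6021 bp with 10124 reads. The limit given for joined domains at Gata6 holds here too. Of the 5 genes, 1 (Pdgfra) matched the RefSeq promoter table used here. The 250 bases before its annotated start (GRCm38.p6, plus strand, chr5:75152001-75152250, 679 to 928 bp above the lower end of the gene interval) are shown because the listed marks differ over them, with CG dinucleotides in capitals.
Pdgfra: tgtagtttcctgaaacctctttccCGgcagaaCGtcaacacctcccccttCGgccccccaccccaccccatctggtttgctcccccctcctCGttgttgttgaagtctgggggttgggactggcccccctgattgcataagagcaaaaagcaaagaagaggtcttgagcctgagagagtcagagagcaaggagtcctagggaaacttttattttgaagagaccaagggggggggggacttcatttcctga
H3K4me3 domains covered 0 of the 250 bases in wildtype, Zbtb11KO and Zfp131KO, and all 250 in the double knockout. H3K27me3 domains covered 147 bases in wildtype and 0 in Zbtb11KO and Zfp131KO. The window lies across the gap between 2 wildtype H3K27me3 domains of 4447 and 3170 bp. These stretches still held 4214 and 3094 bp of domains in Zbtb11KO, and 2842 and 2513 bp in Zfp131KO. The drop to 0 thus depends on where domain edges were called and does not show loss of the mark around the start. The stretch holds 4 CG dinucleotides, where the median of 32851 promoter stretches of this length is 6. Searched on both strands, it holds no match to the GATA motifs AGATAA and TGATAA, the SOX motifs ACAATG and ACAATA or the TATA motif TATAAA, which 9.99%, 7.94%, 10.7%, 8.17% and 12.4% of promoter stretches hold. These counts describe the letters of this window alone. The gene interval begins before the annotated start, so a longer transcript can run through the window.

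**Figure D2:**
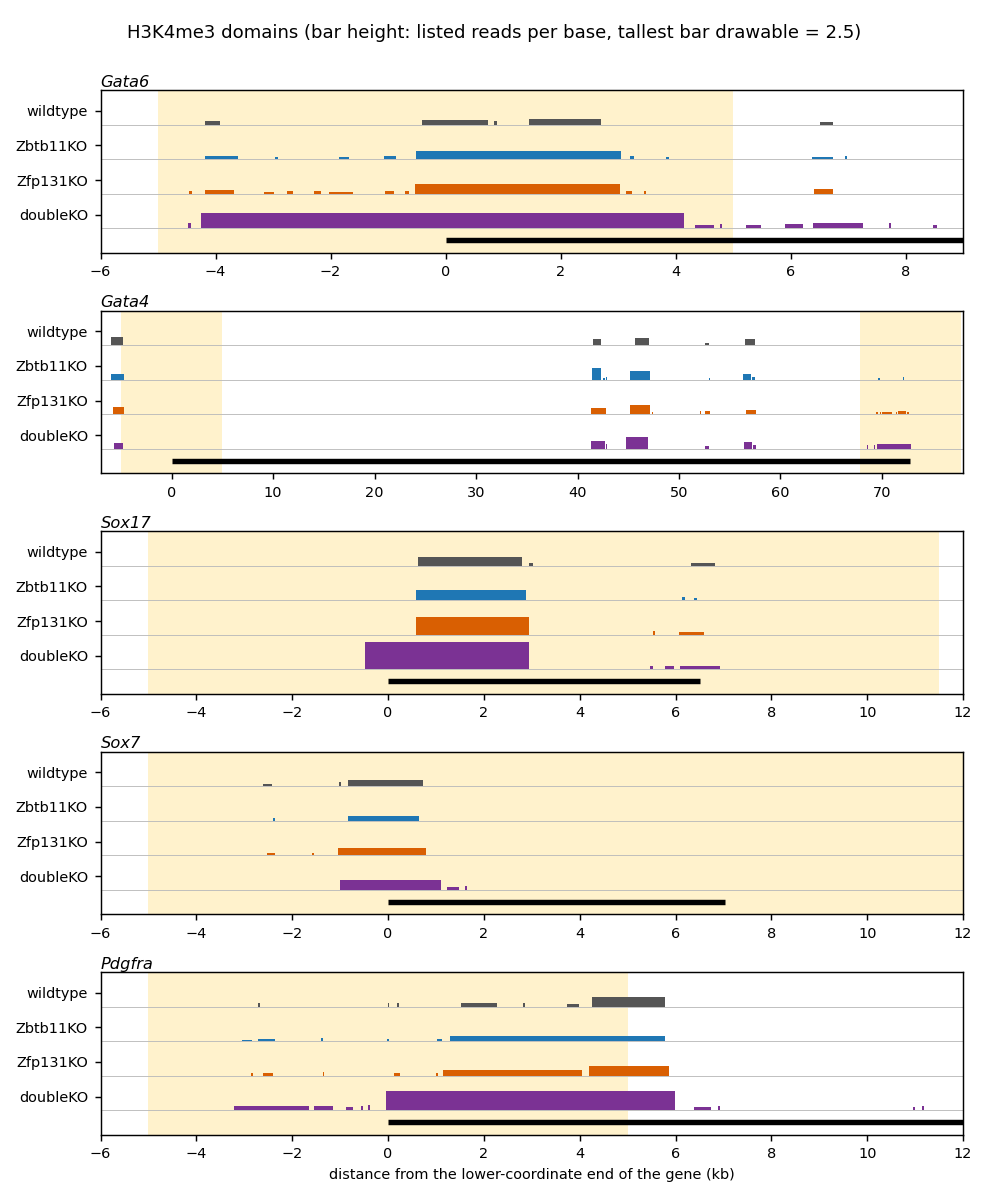
H3K4me3 domains at each gene in wildtype, Zbtb11KO, Zfp131KO and the double knockout; the horizontal axis is the distance in kb from the lower-coordinate end of the gene, bar height is listed reads per base, yellow shading marks the 5 kb windows and the black bar the gene. In the double knockout a single domain spans 8399 bp at Gata6 and 6021 bp at Pdgfra, and the upper end of Gata4 carries a domain that is absent from the wildtype list.

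All 5 genes were wider in the double knockout and in Zfp131KO than in wildtype, and 3 of 5 (Gata4, Gata6 and Pdgfra) in Zbtb11KO. The median width ratio of all genes was 1.08 in the double knockout, so the median gene was wider there too. It was 0.90 in Zfp131KO and 0.92 in Zbtb11KO. Width ratios of the 5 ran from the 83.4th (Sox17) to the 99.7th percentile (Gata4) in Zfp131KO. In Zbtb11KO they ran from the 30.2nd (Sox7) to the 99.5th (Pdgfra). Among 15040 genes, the width ratio of the double knockout lay at the 99.5th percentile for Gata4, whose wildtype width lay beside Neil2, the 99.2nd for Gata6, the 99.1st for Pdgfra, the 93.8th for Sox17 and the 86.0th for Sox7. For reads, the order in the double knockout was Gata6 with a log2 ratio of 3.22, Pdgfra with 2.80, Sox17 with 2.28, Gata4 with 1.15 and Sox7 with 1.04, against a median of 0.72 over all genes. In Zfp131KO the log2 read ratios were 1.49 at Gata6, 1.10 at Sox17, 0.86 at Pdgfra, 0.62 at Gata4 and 0.48 at Sox7, with a median of -0.11. In Zbtb11KO they were 1.24 at Gata6, 0.51 at Pdgfra, 0.23 at Sox17, -0.18 at Gata4 and -0.38 at Sox7, with a median of -0.43. With pooled replicates, neighbours in these orders cannot be separated by a replicate spread. Whether the double knockout exceeds the sum of the single knockouts was not tested.

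**Figure D3:**
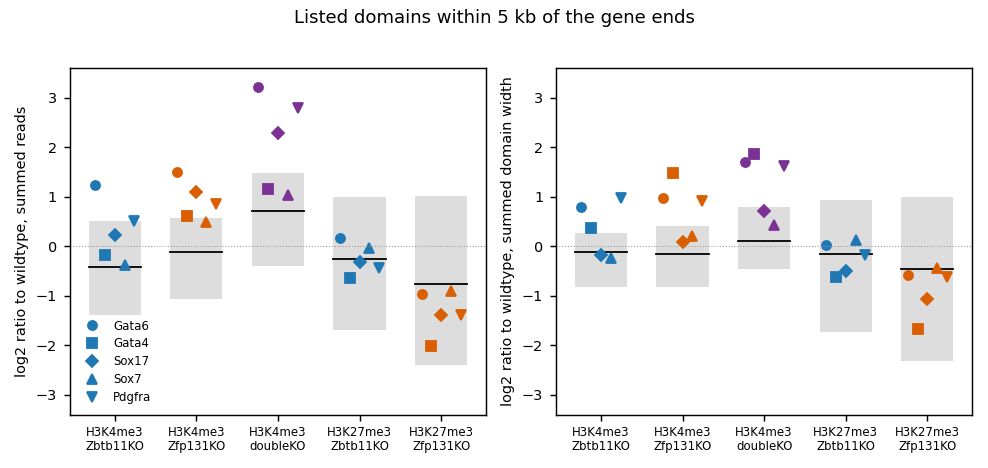
Log2 ratio of summed domain reads and of summed domain width, knockout over wildtype, for each gene within 5 kb of its ends; grey bands run from the 5th to the 95th percentile of all genes with a domain in both lists and black lines are the medians. H3K4me3 in the double knockout puts Gata6 at 3.22 and Pdgfra at 2.80, above the grey band, and H3K27me3 in Zfp131KO puts all 5 genes below 0, inside the band.

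H3K27me3 was listed with fewer reads at all 5 genes in Zfp131KO, as it was at most genes. Gata6 had 3582 H3K27me3 reads over 8879 bp in wildtype, 4020 over 9064 bp in Zbtb11KO and 1846 over 5947 bp in Zfp131KO. Gata4 had 2558 over 6641 bp, 1642 over 4305 bp and 631 over 2073 bp in the same order. Across the genome, reads in H3K27me3 domains summed to 6.43 M in wildtype, 5.62 M in Zbtb11KO and 3.72 M in Zfp131KO.

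Sox17 had 4113 H3K27me3 reads over 9792 bp in wildtype, 3289 over 6918 bp in Zbtb11KO and 1580 over 4690 bp in Zfp131KO. Sox7 had 1995 over 4258 bp, 1944 over 4654 bp and 1062 over 3154 bp. Pdgfra had 4252 over 8616 bp, 3118 over 7668 bp and 1619 over 5636 bp. In Zbtb11KO the 5 genes did not move one way: Gata6 was above wildtype in reads and width, Sox7 was wider with fewer reads, and the other 3 were lower on both.

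The Zfp131KO read ratios at these genes were not extreme among 5554 genes. They were -2.02 at Gata4 (8.59th percentile), -1.39 at Pdgfra (18.8th), -1.38 at Sox17 (19.2nd), -0.96 at Gata6 (39.0th) and -0.91 at Sox7 (41.7th) on the log2 scale, with a median of -0.77. Gata4 stood lowest among the 5. Inside Gata4, the domain 43.2 to 54.3 kb from the lower end covered 11036 bp with 5073 reads as 1 domain in wildtype, and was listed as 7 domains with 3543 reads in Zbtb11KO and 12 domains with 1645 reads in Zfp131KO.

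By the authors' test none of the 5 genes was called for H3K27me3 at its highest-signal region in either knockout. At an unadjusted DESeq2 p under 0.05, 0 passed in Zbtb11KO and 2 in Zfp131KO. No share of all genes is given for that threshold, and the shares that follow are for the adjusted p. In Zbtb11KO 6.98% of 8542 genes were called higher and 3.93% lower, and in Zfp131KO 11.6% of 8790 were higher and 5.15% lower. The nearest to the threshold in Zfp131KO were Pdgfra, with a log2 fold change of -0.87 (SE 0.34, adjusted p 0.0571), and Sox17, with -0.80 (SE 0.34, adjusted p 0.0791), per the authors' deposited table. For Gata4, Gata6 and Sox7 the rule picked regions of 36 to 48 bp in Zfp131KO, which describe little of the domains.

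Other H3K27me3 regions of the same genes were called lower in Zfp131KO, 4 of 45, beside 6.18% of all regions in that table, and 0 were called higher, beside 11.7%. At Pdgfra the 4447 bp region from -3.69 to 0.75 kb had -1.15 (SE 0.33, adjusted p 0.00738) per the authors' deposited table. A 2659 bp region 65.6 to 68.2 kb along Gata4 had -1.33 (SE 0.36, adjusted p 0.00339) there, in the authors' deposited table. The other 2 were short, 274 bp at Pdgfra and 106 bp at Sox17, and had a domain in the wildtype list but not in that of Zfp131KO. Of all such regions, 14.4% were called lower and 0.0195% higher in Zfp131KO. In Zbtb11KO 1 of 45 was lower, the same 274 bp region of Pdgfra with -1.27 (SE 0.46, adjusted p 0.0420) according to the authors' deposited table. All regions of that table were called lower in 4.83% of cases and higher in 9.09%. The 274 bp region had no domain in the Zbtb11KO list either, and 15.9% of regions listed in wildtype but not Zbtb11KO were lower and 0.0133% higher. The direction of the calls at these short regions was therefore largely given by the list.

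**Figure D4:**
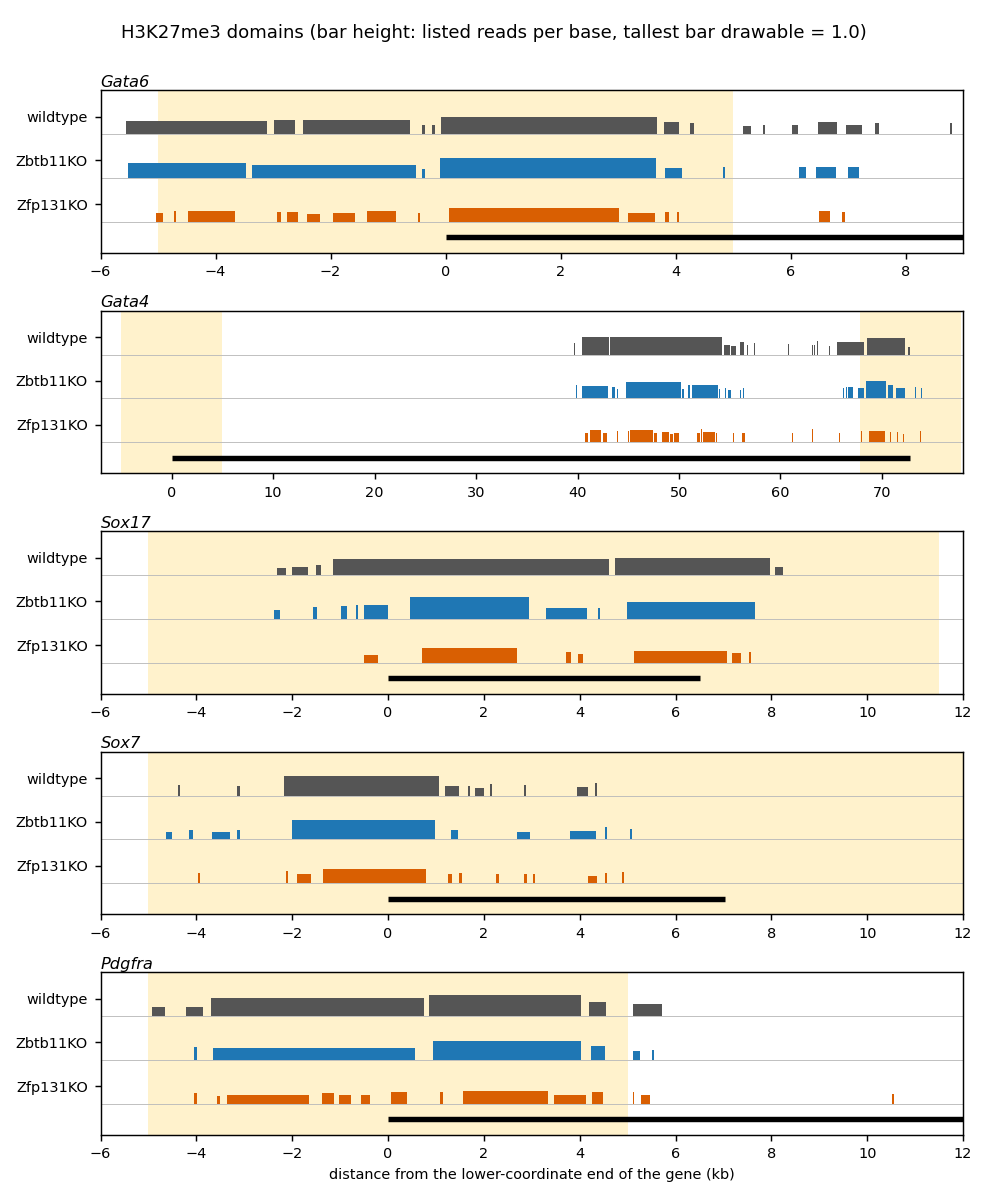
H3K27me3 domains at each gene in wildtype, Zbtb11KO and Zfp131KO, drawn as distance in kb from the lower-coordinate end of the gene; bar height is listed reads per base, yellow shading marks the 5 kb windows and the black bar the gene. The 11036 bp domain inside Gata4 in wildtype is broken into 12 domains in Zfp131KO.

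H3K4me3 and H3K27me3 overlapped at the ends of all 5 genes in the single knockouts, Gata4 included, which had no overlap there in wildtype. In Zbtb11KO the share of H3K4me3 width covered by H3K27me3 was 92.4% at Gata6, 97.5% at Sox7, 100% at Sox17, 76.4% at Pdgfra and 18.3% at Gata4. In Zfp131KO it was 82.5% at Gata6, 89.1% at Sox7, 87.3% at Sox17, 64.5% at Pdgfra and 28.1% at Gata4. In Zfp131KO the share was below wildtype at Gata6, Sox7, Sox17 and Pdgfra. At Gata4, 957 bp of the 3408 bp of H3K4me3 in Zfp131KO lay over H3K27me3, where wildtype had 0 bp. Of all genes with H3K4me3 within 5 kb, 38.7% had any such overlap in Zbtb11KO and 41.9% in Zfp131KO.

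The H3K27ac regions of these genes each had a domain in the wildtype list and, except a Sox7 region of 447 bp in Zfp131KO, in no other. Of all regions listed in wildtype alone, 36.9% were called lower and 0.0331% higher in Zfp131KO, and 27.6% lower and 0.0844% higher in Zbtb11KO. The direction of a call was therefore largely given by the list, and the values that follow are a description. In Zfp131KO 4 of the 4 genes with a region were called lower and 0 higher, beside 11.8% of 12335 genes lower and 5.25% higher. Sox17 had a log2 fold change of -2.16 (SE 0.34, adjusted p 1.33e-08), Pdgfra -2.07 (SE 0.49, adjusted p 2.92e-04), Sox7 -1.65 (SE 0.58, adjusted p 0.0200) and Gata6 -0.96 (SE 0.37, adjusted p 0.0364) per the authors' deposited table. In Zbtb11KO 2 of 4 were called lower, beside 9.6% of 12307 genes lower and 5.05% higher: Sox17 had -2.44 (SE 0.46, adjusted p 3.78e-06) and Sox7 -1.42 (SE 0.51, adjusted p 0.0252) per the authors' deposited table. Pdgfra had -0.72 (SE 0.38, adjusted p 0.149) and Gata6 -0.59 (SE 0.35, adjusted p 0.208) in Zbtb11KO in the authors' deposited table.

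These H3K27ac regions were 42 to 447 bp wide, with 10 to 76 wildtype reads each. Counted by region, 7 of 7 were called lower in Zfp131KO, beside 14.3% of all regions lower and 15.8% higher, and 3 of 7 in Zbtb11KO, beside 11.8% lower and 14.6% higher. Of the stem cell markers, 3 of 8 were called higher for H3K27ac in Zfp131KO (Esrrb, Nanog and Zfp42), beside 5.25% of all genes. In Zbtb11KO 3 of 7 were called higher (Nanog, Sox2 and Zfp42), beside 5.05%. Except at Nanog, these calls were at regions of 28 to 75 bp, whose lists of origin are not given here.

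NELF was low at most genes in Zbtb11KO, and 4 of the 5 endoderm genes lay at the upper edge of that distribution. The median of 14822 genes was a log2 fold change of -0.96, with 0.0945% called higher and 56.1% lower. Of the 5 genes, 1 was called higher and 1 lower. Sox7 was the higher one, with 0.90 (SE 0.39, adjusted p 0.0423, 99.8th percentile) per the authors' deposited table, at a region over its lower end.

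Sox17 had 0.22 (SE 0.36, adjusted p 0.577), Gata6 0.18 (SE 0.45, adjusted p 0.718) and Pdgfra -0.09 (SE 0.43, adjusted p 0.844) per the authors' deposited table, with 95% intervals from -0.49 to 0.93, from -0.70 to 1.05 and from -0.93 to 0.74. Their percentiles were 99.0, 98.8 and 97.3. The Gata4 region, -1.90 (SE 0.37, adjusted p 2.48e-05) per the authors' deposited table, lay beside Neil2. At the upper end of Gata4, 73.0 to 73.5 kb from the lower end, a region listed in Zbtb11KO alone had 1.94 (SE 0.74, adjusted p 0.0253) per the authors' deposited table. The other higher region lay at Pdgfra, 0.86 to 1.36 kb from the lower end, with 1.73 (SE 0.59, adjusted p 0.0126) per the authors' deposited table. In all, 3 of 30 NELF regions within 5 kb were called higher and 2 lower, beside 0.159% and 49% of all 70551 regions. Of the 3 higher regions, 2 had an event in the Zbtb11KO list alone, and 16.2% of all such regions were called higher and 0% lower.

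Events listed for NELF cover all 4 genotypes, and 67.3% of all genes had one within 5 kb in wildtype, 50.3% in Zbtb11KO, 51.7% in Zfp131KO and, with both genes knocked out, 35.1%. All 5 genes had one in wildtype and both single knockouts, and 3 of 5 in the double knockout. Scaled to the total reads of each group, Sox17 had 11.3 NELF reads per M in wildtype, 9.51 in Zbtb11KO, 10.4 in Zfp131KO and, with both genes knocked out, 3.54. Sox7 had 5.99, 4.93, 5.64 and no listed event. Gata6 had 6.41, 4.89, 2.44 and 1.22. These 3 genes were highest in wildtype on this scale.

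Pdgfra had 8.64 NELF reads per M in wildtype, 12.3 in Zbtb11KO, 4.89 in Zfp131KO and, with both genes knocked out, 1.91. It was above wildtype in Zbtb11KO alone on this scale. Gata4 had 2.63, 0.853, 2.28 and no listed event, but 1.43 of the wildtype 2.63 was an event beside Neil2. At its upper end alone Gata4 had 1.19 in wildtype in 1 event, 2.28 in Zfp131KO in 2 events and 0.853 in Zbtb11KO in 1 event, so Zfp131KO was above wildtype there and below it with the Neil2 event counted. Medians over all genes with events in both lists were -1.03 for Zbtb11KO, -0.84 for Zfp131KO and -1.91 for the double knockout on the log2 scale. In the double knockout the 3 genes with an event had log2 ratios of -1.67 at Sox17, -2.17 at Pdgfra and -2.39 at Gata6, which lay at the 64.3rd, 36.8th and 28.2nd percentiles. Scaling to the reads in events instead moves every gene by the same constant, to medians of 0.25, 0.22 and 0.59, so the sign of these ratios rests on the scale chosen and only the place among genes is read. In Zbtb11KO the percentiles were 99.7 for Pdgfra, 95.2 for Sox17, 94.7 for Sox7, 91.1 for Gata6 and 22.5 for Gata4. In Zfp131KO they were 94.3 for Sox7, 93.1 for Sox17, 90.2 for Gata4, 50.9 for Pdgfra and 24.0 for Gata6. Both Gata4 values count the wildtype event beside Neil2.

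**Figure D5:**
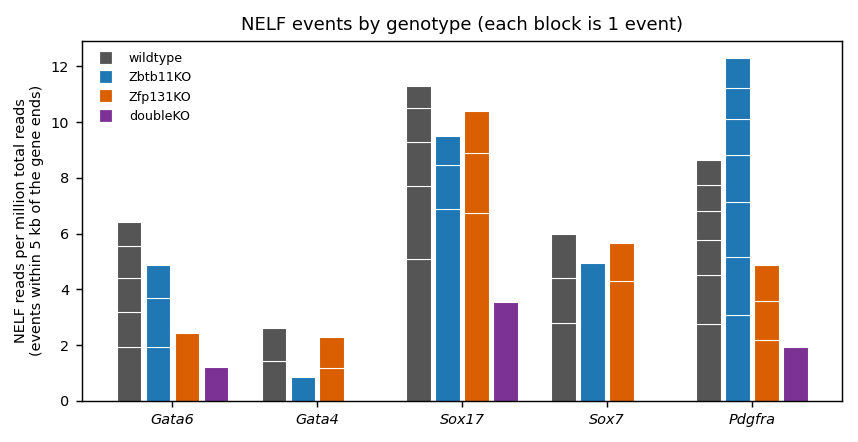
NELF events within 5 kb of each gene's ends in wildtype, Zbtb11KO, Zfp131KO and the double knockout, stacked as reads per M total reads, where each block is 1 event. Pdgfra reaches 12.3 in Zbtb11KO, and the double knockout has no event at Gata4 or Sox7.

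The strongest NELF event at Sox17 kept its place. It lay 2.58 kb from the lower end with 308.3 reads in wildtype, 2.52 kb with 351.9 reads in Zbtb11KO, 2.53 kb with 414.3 reads in Zfp131KO and 2.58 kb with 253.7 reads in the double knockout, before scaling. At Sox7 the event 0.08 to 0.12 kb above the lower end had 169.6 reads in wildtype, 251.9 in Zbtb11KO and 263.8 in Zfp131KO, while the wildtype event at -0.87 kb was not listed in either knockout.

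Induced ZBTB11-HA had events near 4 of the 5 genes, beside 46.3% of all genes. Sox17 carried 4, the strongest 0.88 kb above its lower end with 315.3 reads and a log2 fold over control of 5.29 as listed by the authors, and the others with 79 to 87.2 reads. Gata6 had 3 events of 33.6 to 52.6 reads, Pdgfra 1 of 46.6 and Sox7 1 of 31.3. Gata4 had none near its ends and 2 inside the gene. Induced ZFP131-HA had 0 events within 5 kb of these genes, beside 13.6% of all genes, and 1 inside Gata4 with 28.2 reads. The HA libraries came from medium with 2i, unlike the other libraries.

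SETD1A, a methyltransferase that places H3K4me3, was profiled in wildtype here and had events at all 5 genes, beside 51.8% of all genes: 3 at Gata6, 2 at Sox17 and 1 each at Sox7, Pdgfra and Gata4. The SETD1A event of Gata4 lay 69.7 kb from the lower end, near the stretch where H3K4me3 was listed in the knockouts. CHD4, the remodelling ATPase of NuRD, had an event at 1 gene (Sox7) in wildtype, at 3 in Zbtb11KO (Gata6, Sox17 and Pdgfra) and at 3 in Zfp131KO (Gata6, Sox7 and Sox17), beside 19.1%, 11% and 21.4% of all genes. By the authors' test 0 of 4 genes with a CHD4 region were called in Zbtb11KO, beside 3.61% of genes higher and 1.49% lower, and 0 of 3 in Zfp131KO, beside 2.72% higher and 7.5% lower. At an unadjusted DESeq2 p under 0.05, 1 (Gata6) passed in Zbtb11KO and 0 in Zfp131KO, with no share of all genes given for that threshold. Counted by region, 1 of 5 was called higher in Zbtb11KO and 0 of 5 in Zfp131KO. The one called, a second CHD4 region at Sox17, had 1.44 (SE 0.50, adjusted p 0.0379) for Zbtb11KO in the authors' deposited table. That region had an event in the Zbtb11KO list alone, and of all such regions 35.3% were called higher and 0% lower. Of the other CHD4 regions in Zbtb11KO, 3.35% of those in both lists and 0% of those in wildtype alone were called higher. In Zfp131KO the shares called higher were 15.5% for its list alone, 0.85% for both lists and 0% for wildtype alone.

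SIN3A, the scaffold of a histone deacetylase complex, had events at all 5 genes in wildtype and at 4 in Zbtb11KO, beside 67.9% and 66.2% of all genes. The wildtype events held reads as follows, with 442.6 in 6 events at Sox17, 226.4 in 4 at Sox7, 202.6 in 3 at Pdgfra, 124.5 in 2 at Gata6 and 37.7 in 1 at Gata4. In Zbtb11KO the events held 372.3 reads at Sox17, 109.9 at Sox7, 200.7 at Pdgfra and 395.3 at Gata6, with none at the ends of Gata4. No gene of the 5 was called for SIN3A in either knockout, beside 5.91% of genes higher and 2.51% lower in Zbtb11KO and 5.7% higher and 1.95% lower in Zfp131KO. At an unadjusted DESeq2 p under 0.05, 1 passed in Zbtb11KO (Gata4) and 1 in Zfp131KO (Sox17), again with no share of all genes given.

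Further genes of the endoderm programme were counted for H3K4me3 beside the shares of all genes, 43.1% higher and 23.7% lower in Zbtb11KO and 34% and 4.34% in Zfp131KO. Of 16 further primitive endoderm genes with a region, 10 were called higher and 1 lower in Zbtb11KO, with a median log2 fold change of 0.97, and 6 were higher and 0 lower in Zfp131KO, with a median of 0.54; the medians of all genes were 0.20 and 0.24. The count in Zfp131KO is near that of all genes. The 6 in Zfp131KO were Col4a1, Col4a2, Lamb1 and Sparc, which encode basement membrane proteins, the endocytic receptor Cubn and the proteoglycan Srgn. Col4a1 and Col4a2 share 1 region between them, with 1.01 (SE 0.25, adjusted p 7.53e-04) in Zfp131KO in the authors' deposited table. Srgn had 2.50 (SE 0.64, adjusted p 8.65e-04) in Zfp131KO in the authors' deposited table.

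Of 14 FGF and PDGF pathway genes, 8 were called higher and 4 lower in Zbtb11KO, and 2 were higher and 0 lower in Zfp131KO, the latter below the 34% of all genes. Those 2 encode ligands of the PDGF family: Pdgfa had 0.80 (SE 0.23, adjusted p 0.00283) and Pdgfc 0.66 (SE 0.12, adjusted p 8.56e-07) in Zfp131KO in the authors' deposited table. Among 6 near relatives with a region, of the GATA, SOXF and receptor families, 3 were higher and 1 lower in Zbtb11KO and 1 higher (Kdr) in Zfp131KO. Markers of other lineages are read against the same shares. In Zbtb11KO 4 of 7 mesoderm and definitive endoderm markers, 1 of 5 fibroblast markers and 2 of 7 stem cell markers were called higher for H3K4me3, and 3 of the 7 stem cell markers were lower. In Zfp131KO 1 of 7 (Eomes), 1 of 5 (Twist1) and 0 of 7 were, and 0 of 5 trophectoderm markers were higher in either, with 1 (Tfap2c) lower in Zbtb11KO. The part of other cell types in the results at the 5 genes was not tested.

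The genes whose changes were most like the median endoderm gene over the 6 histone mark tables were Foxi3, Grhl2, Arsb, Ccdc194 and Chn2, among 4156 genes with a region in every table. Likeness is the root mean square difference in percentile, which was 5.28 to 8.20 percentile points for them. The median endoderm gene lay at the 68.6th percentile for H3K4me3 in Zbtb11KO, the 91.8th in Zfp131KO, the 39.6th and 12.8th for H3K27me3 and the 11.1th and 3.26th for H3K27ac in the same order. Foxi3 had a H3K4me3 log2 fold change of 1.12 (adjusted p 1.45e-09) in Zbtb11KO and 0.56 (adjusted p 0.0381) in Zfp131KO in the authors' deposited tables. With all 11 tables used, the nearest genes were Nefm, Samd4, Hmga2, Dusp4 and Zfp316, and 0 were shared with the first set.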

How the data were processed

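The 48 ChIP-seq libraries were aligned to mm10 with Bowtie 1.0.1, and DESeq2 1.28.1 and bedtools were used, per the submitters' processing notes. Per the file headers, the authors called events (signal: reads per event, summed over replicates, with a log2 fold over control and a score, the log2 of a p-value) with MultiGPS and domains (read counts and p-values, from pooled replicates, p under 0.01) with DomainFinder of SEED; the wildtype NELF header names 1 signal replicate and the others 2. DESeq2 tables deposited by the authors give each region's mean signal, its log2 fold change and standard error, the Wald score and both p-values. Domain reads at a gene were not scaled, and total reads per event list ran from 24.0 to 71.6 M.

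Regions, domains and events were matched to RefSeq genes within 5 kb of either end (Python 3.11.15, pandas 2.3.3). The called region per gene was the one of highest mean signal, at adjusted p under 0.05; intervals are 95% from the table's standard error. Ratios used genes with at least 50 wildtype reads. Named genes outside the 5 were given values by a rule, at most 4 called ones of a list in each table by adjusted p, and the 5 nearest by likeness; others are named as counted, after their values were seen. The direction of the fold changes was checked against the lists, except for SIN3A in Zfp131KO, where this was not possible. Regions listed in the knockout alone were above 0 in 82.1% to 99.5% of cases. Steps were tested on simulated data. The SIN3A list of Zfp131KO was identical to the CHD4 list (12504 events) and the NELF table of Zfp131KO to that of Zbtb11KO; neither was used, and the SIN3A table of Zfp131KO could not be matched to a list. The 5 genes and all gene lists were chosen with earlier results of these data known.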

Additional observations from a re-analysis of the deposited data

How the results depend on the processing

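No paired analysis was possible because the deposited values cover whole groups, and for the same reason no library could be left out. Among main counts, 220 values under other settings stayed within 1.5 times and 33 did not; centring on the genes' median, leaving out regions within 1 kb of another gene's end and taking the widest region were chosen after seeing the data. With the lowest adjusted p per gene, which picks regions by outcome, H3K4me3 higher in Zfp131KO went from 2 to 5, H3K27me3 lower from 0 to 3 in Zfp131KO and from 0 to 1 in Zbtb11KO, and CHD4 and NELF higher in Zbtb11KO to 1 and 2. With the widest region, H3K27me3 lower in Zfp131KO was 1, CHD4 higher in Zbtb11KO 1 and NELF higher 0. At an adjusted p under 0.1, H3K27me3 lower in Zfp131KO was 2 and SIN3A lower in Zbtb11KO 1. At 0.01, H3K27ac lower was 1 in Zbtb11KO and 2 in Zfp131KO, and NELF higher 0. Centred on the genes' median, H3K27me3 lower in Zfp131KO was 2, and H3K4me3 and SIN3A lower in Zbtb11KO were 1 each (Gata4). Within 2 kb, NELF higher in Zbtb11KO was 2, NELF in the double knockout was at 1 gene and SETD1A at 3. NELF lower in Zbtb11KO was 0 within 2 kb, centred on regions or on genes, or without regions beside another gene. Within 2 kb the Gata4 NELF value in Zbtb11KO reversed from -1.90 to 1.94, since the region beside Neil2 drops out. Scaled to reads in events, which moves every gene by one constant and so says nothing of these genes alone, NELF was above wildtype at 4 genes for Zbtb11KO, 4 for Zfp131KO and 3 for the double knockout, against 1, 0 and 0. At a log2 p of -20 or lower, CHD4 events were at 0 genes in wildtype and both knockouts, ZBTB11-HA at 2 and SETD1A at 3. At a domain p under 0.0001, the genes with narrower H3K27ac went from 4 to 2 in both knockouts. For the rest, the cause was not tested. All 5 genes had wider H3K4me3 in the double knockout and narrower H3K27me3 in Zfp131KO under each width setting tried. At the main setting the median gene went the same way, with width ratios of 1.08 and 0.72. For H3K27me3 width in Zfp131KO, the 5 lay between the 9.88th (Gata4) and the 52.0th percentile (Sox7) of genes.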
